A study of Mus musculus with 24 samples.

Results

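The unfolded protein response and the integrated stress response of mouse liver were described through 10 genes, taken by symbol from the table of whole-number counts deposited for the FFD diet model. The genes were Ern1, Xbp1, Hspa5, Hsp90b1, Sdf2l1, Dnajb9, Herpud1, Atf4, Ddit3 and Trib3. All 10 were present among the 56205 Ensembl genes of the table, and all 10 had enough counts to be tested, among 17913 genes tested in all. The rule that lists them uses names and no measured value. Poly(A) RNA of whole livers was sequenced from C57BL/6J mice, a common inbred strain, and the labels name no transgene or engineered deletion for either diet. The mice had spent 20 weeks on FFD, a high fat diet, or on a control diet. The study's methods describe FFD as rich in palm oil, fructose and cholesterol, and give an age of 8 to 10 weeks at its start. Each diet has 12 libraries, numbered 1 to 12, from both sexes with 6 mice per diet and sex. The labels do not give the sex of a library, and whole liver pools hepatocytes with all other cells of the organ.

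Proteins that enter the secretory pathway fold in the endoplasmic reticulum (ER) with the help of chaperones. When unfolded protein accumulates there, 3 sensors in the ER membrane respond: IRE1 (encoded by Ern1), ATF6 and PERK (encoded by Eif2ak3). IRE1 splices the mRNA of Xbp1, whose protein then activates genes of ER folding and ER-associated degradation (ERAD), while cleaved ATF6 drives chaperone genes such as Hspa5. PERK and the other eIF2alpha kinases, which answer to amino acid shortage, viral RNA or heme shortage, slow general translation and favour translation of ATF4. ATF4 activates amino acid transport and synthesis genes, Ddit3 (which encodes CHOP) and Trib3. Hepatocytes secrete large amounts of plasma protein and carry much rough ER. The counts here measure total mRNA and do not show splicing of Xbp1, translation of Atf4, or cleavage of ATF6.

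Counts per library ranged from 14468418 to 22112552. At this depth the lowest member, Ddit3, had 31 to 160 counts per library, and Hspa5 had 3646 to 11848. Levels below are CPM (counts relative to the library total after edgeR's TMM scaling), and log2FC is the log2 fold change of FFD over control with its standard error (SE). Control replicate 10 stood apart from the other 11 control libraries. It had the lowest total, 16646 genes with a count against 17406 to 18465, and 3.65% of its counts on mitochondrial genes against 6.04% to 8.68%. FFD replicate 9 had the highest TMM factor, 1.34, and the most genes detected, 19559. Counts of Xist, an X-linked transcript, were 2664 to 6285 in replicates 1 to 6 of both diets and 0 to 3 in replicates 7 to 12. Values are also given within these sets of 12 libraries, 6 per diet. The sets have the size that the design gives per diet and sex, but no label names them as the sexes.

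Promoter sequences were available in RefSeq (GRCm38.p6) for all 10 genes, as 250 bases before to 50 bases after the transcription start, and hold short elements known for these responses. The exact ER stress response element, CCAAT and CCACG with 9 bases between them, was searched on both strands and found in 2 member promoters, Hspa5 and Hsp90b1, and in 0.119% of 32851 mouse promoters. The related ER stress response element II, ATTGG and CCACG with 1 base between them, was found in Herpud1 and in 0.0365% of promoters. The amino acid response element TGATGNAA was found in Trib3 and Herpud1 and in 3.97% of promoters, and the XBP1-binding core TGACGTGG in 0 of the 10 and in 0.676%, which says only that these letters are not in the windows. Positions count from the RefSeq start, and the Hspa5 window lies inside the GENCODE M21 gene model, which begins farther upstream. For Trib3 the GENCODE M21 model begins farther downstream, so its element lies after the RefSeq start but before the GENCODE start. Of 376 tested genes with TGATGNAA, 62 were called higher and 21 lower on FFD (22.1%, beside 18.2% of all genes, by the thresholds given below). Of 123 genes with TGACGTGG 18 were higher and 9 lower, of 20 with the ER stress response element 4 and 0, and of 9 with element II 0 and 1. The 4 promoters that hold an element are shown. In each, capitals mark the match on the gene's strand or its reverse complement.
Hspa5 (chr2:34772020-34772049, plus strand, 70 to 41 bases before the start): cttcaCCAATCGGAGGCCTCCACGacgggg
Hsp90b1 (chr10:86705513-86705676, minus strand, 232 to 69 bases before the start): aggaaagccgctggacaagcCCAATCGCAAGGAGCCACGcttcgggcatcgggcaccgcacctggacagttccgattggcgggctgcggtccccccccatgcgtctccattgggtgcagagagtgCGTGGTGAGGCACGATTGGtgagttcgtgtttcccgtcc
Herpud1 (chr8:94386297-94386407, plus strand, 132 to 22 bases before the start): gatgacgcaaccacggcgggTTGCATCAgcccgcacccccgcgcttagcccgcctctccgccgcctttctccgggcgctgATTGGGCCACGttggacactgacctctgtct
Trib3 (chr2:152344028-152344057, minus strand, 3 to 32 bases after the start): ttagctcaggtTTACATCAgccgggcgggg
The Hsp90b1 window holds the ER stress response element 2 times, once on each strand, and the Herpud1 window holds the amino acid response element on the reverse strand followed by the related ER stress element on the forward strand. A match is a description of letters, not of binding.

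At the thresholds that the study set for RNA-Seq of human liver (adjusted p ≤ 0.01 and |log2FC| > 0.5), 1 of the 10 members was higher on FFD, Trib3, and 1 was lower, Ern1. The other 8 were not called. Of all 17913 genes tested with edgeR's quasi-likelihood test and adjusted by Benjamini-Hochberg, 18.2% were called, 13.2% as higher and 4.99% as lower, so the share of members called was near the background. At an adjusted p ≤ 0.05 without a fold threshold, 6 of the 10 members passed, 2 higher (Trib3 and Ddit3) and 4 lower (Ern1, Dnajb9, Herpud1 and Hsp90b1), beside 39.6% of all genes. The diets overlapped in every member, whereas 1.89% of all genes had no overlap. Scaling by library totals alone in place of TMM moved the median log2FC of all genes from -0.03 to 0.26. Under totals alone 21.4% of genes were called higher and 1.26% lower, so that 94.4% of all calls were higher, against 72.6% under TMM. The called members were then Trib3 and Ddit3, and Hspa5 (0.15), Hsp90b1 (0.0038), Xbp1 (0.20) and Atf4 (0.12) changed sign. In whole liver, fewer cells of a type and less RNA per cell cannot be told apart.

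**Figure D1:**
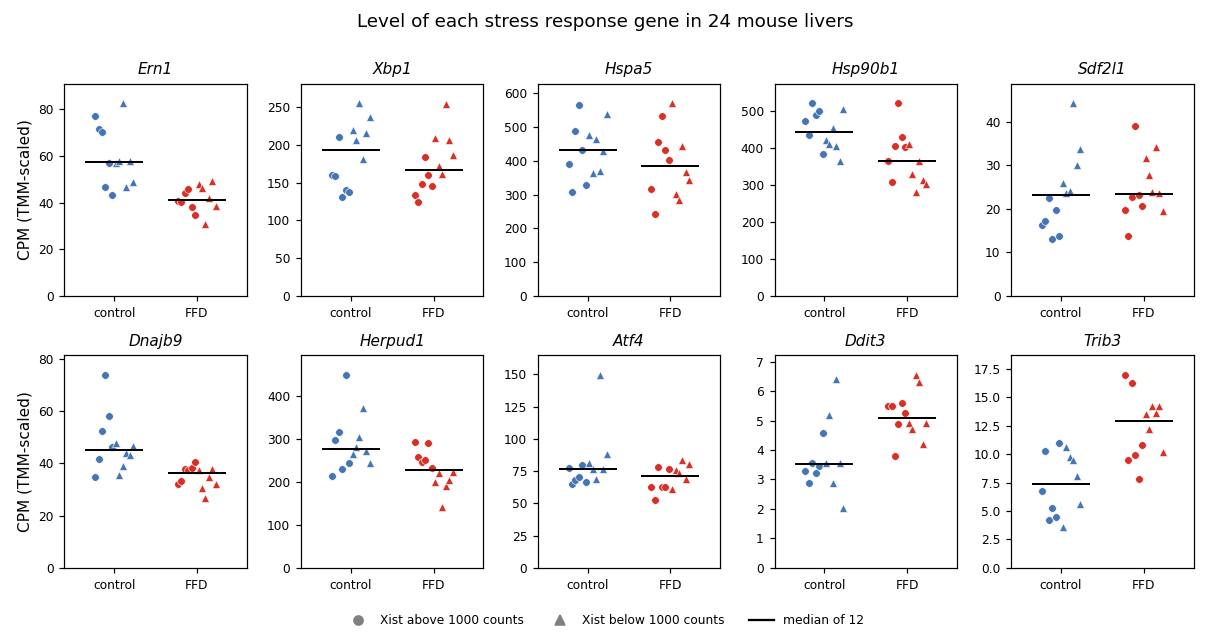
CPM (TMM-scaled, linear axes from 0) of each of the 10 genes in 12 control (blue) and 12 FFD (red) libraries, with circles for libraries with Xist above 1000 counts, triangles for those below, and bars for the medians. All 12 FFD points lie below the control median for Ern1 and Dnajb9 and above it for Ddit3 and Trib3, and control replicate 10 is the topmost control point for Atf4, Ddit3 and Sdf2l1.

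Ern1 (ENSMUSG00000020715, chr11:106394650-106487852) encodes IRE1, the kinase and endoribonuclease that senses unfolded protein. Its FFD libraries ranged from 31.0 to 49.2 CPM with a median of 41.2, and its control libraries from 43.1 to 82.7 with a median of 57.4. All 12 FFD libraries lay below the control median, and 8 of the 12 control libraries lay above every FFD library. The level was 41.5 ± 5.42 CPM (SD, n = 12) on FFD and 59.7 ± 12.9 (SD, n = 12) in controls, and the log2FC was -0.52 (SE 0.10, edgeR adjusted p = 0.000288). The fold threshold was close: without FFD replicate 9, control replicate 1, 2 or 9, the log2FC was -0.49, -0.49, -0.50 or -0.47 and Ern1 was no longer called, with adjusted p from 0.000595 to 0.000676 in the same edgeR test. Nor was it with only genes of at least 10 counts in every library in the fit (-0.47). Under library totals alone it was -0.25 (edgeR adjusted p = 0.106), which is -0.50 relative to the median of all genes, against -0.49 under TMM.

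Xbp1 (ENSMUSG00000020484, chr11:5520659-5525893), whose mRNA is the substrate of IRE1 and whose protein is a transcription factor for ER capacity, was not called. It ranged from 124 to 254 CPM with a median of 167 on FFD and from 131 to 255 with a median of 193 in controls. The 2 ranges nearly coincided. The log2FC was -0.11 (SE 0.13, 95% CI -0.37 to 0.15, edgeR adjusted p = 0.505). In controls it was 156 ± 29.2 CPM (SD, n = 6) where Xist was above 1000 counts and 219 ± 25.7 (SD, n = 6) where it was below, and on FFD 149 ± 21.0 (SD, n = 6) and 198 ± 33.1 (SD, n = 6).

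Among the ER chaperones, Hspa5 (ENSMUSG00000026864, chr2:34771970-34777547) encodes BiP, the main chaperone of the ER lumen and the one that keeps the sensors inactive. It ranged from 242 to 572 CPM (median 386) on FFD and from 308 to 565 (median 431) in controls. The highest and the lowest of all 24 livers were both on FFD, replicates 7 and 2. The log2FC was -0.14 (SE 0.13, 95% CI -0.41 to 0.13, edgeR adjusted p = 0.432). Under TMM the interval does not reach a fold of 0.5 on the log2 scale in either direction. Hsp90b1 (ENSMUSG00000020048, chr10:86690209-86705509) encodes GRP94, the HSP90 of the ER. It ranged from 280.2 to 519 CPM (median 363) on FFD and from 365 to 521 (median 443) in controls. In 7 FFD libraries its level was below that of every control library, and FFD replicate 4 was above all but 1 control library. The log2FC of -0.28 (SE 0.09, edgeR adjusted p = 0.0229) was under the fold threshold.

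Dnajb9 (ENSMUSG00000014905, chr12:44205559-44210326) encodes ERdj4, a BiP cochaperone that represses IRE1. Its range was 26.8 to 40.4 CPM on FFD (median 36.2) and 35 to 74.0 in controls (median 45.2). As for Ern1, all 12 FFD libraries lay below the control median, and 9 control libraries lay above every FFD library. The log2FC was -0.43 (SE 0.10, edgeR adjusted p = 0.00143), past the p threshold and short of the fold threshold. Sdf2l1 (ENSMUSG00000022769, chr16:17130138-17132383) encodes a cofactor of the BiP cycle. Its FFD libraries ranged from 13.8 to 39.1 CPM (median 23.4) and its control libraries from 13.2 to 44.4 (median 23.1), the highest being control replicate 10. The diets overlapped throughout, with a log2FC of 0.08 (SE 0.18, edgeR adjusted p = 0.749), or 0.20 (adjusted p = 0.353) without control replicate 10.

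Herpud1 (ENSMUSG00000031770, chr8:94386438-94395377), an ER membrane protein that organizes ERAD, ranged from 142 to 294 CPM on FFD (median 227) and from 215 to 450 in controls (median 276). In 10 of the 12 FFD libraries it was below the control median, and 5 control libraries were above every FFD library. The log2FC was -0.35 (SE 0.12, edgeR adjusted p = 0.0239), so Herpud1 was not called. Within the 12 libraries with Xist below 1000 counts, the 6 FFD livers were at 142 to 223 CPM and the 6 control livers at 243 to 373. The log2FC there was -0.54 (edgeR adjusted p = 0.00472), and within the other 12 it was -0.15 (adjusted p = 0.575). How many of all genes separate the diets within a set of 12 was not counted. The difference between the sets did not pass the test (-0.40, SE 0.21, edgeR adjusted p of the interaction term 0.25).

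Of the integrated stress response genes, Atf4 (ENSMUSG00000042406, chr15:80255184-80257541) is regulated mainly at translation. It ranged from 52.5 to 83.7 CPM on FFD (median 71.3) and from 65.3 to 149.7 in controls (median 76.9). The highest value was that of control replicate 10, and the next control library had 88.3. The log2FC was -0.21 (SE 0.11, edgeR adjusted p = 0.149), and without control replicate 10 it was -0.09 (edgeR adjusted p = 0.34).

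Ddit3 (ENSMUSG00000025408, chr10:127290774-127296288) encodes CHOP, a transcription factor linked to cell death under prolonged ER stress. Its FFD libraries ranged from 3.78 to 6.55 CPM (median 5.10) and its control libraries from 2.04 to 6.41 (median 3.51). All 12 FFD libraries were above the control median, and 9 control libraries were below every FFD library. The level was 5.18 ± 0.791 CPM (SD, n = 12) on FFD and 3.72 ± 1.17 (SD, n = 12) in controls. Its log2FC was 0.48 (SE 0.14, edgeR adjusted p = 0.008), just under the fold threshold. The highest control value was again that of replicate 10, and without it the log2FC was 0.57 (edgeR adjusted p = 0.000729) and Ddit3 was called. It was also called without FFD replicate 3 (0.52) or 11 (0.51) or control replicate 6 (0.52) or 8 (0.54), and by DESeq2 (0.51) and limma-voom (0.54). The gene shares 68 exon bases with Mars, the methionyl-tRNA synthetase gene on the opposite strand, which had 23984 counts over all libraries against 2062 for Ddit3. Whether the counting used strand is not given in the sources used here, so reads in the shared bases cannot be assigned. Mars was not called, and its log2FC of -0.24 lay in the opposite direction.

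Trib3 (ENSMUSG00000032715, chr2:152337422-152344032) encodes a pseudokinase induced by ATF4 and CHOP that dampens ATF4 activity and insulin signalling through AKT. It ranged from 7.87 to 17.0 CPM on FFD (median 12.9) and from 3.62 to 11 in controls (median 7.39). All 12 FFD libraries were above the control median, and 7 were above every control library. Trib3 was at 12.5 ± 2.84 CPM (SD, n = 12) on FFD and 7.41 ± 2.75 (SD, n = 12) in controls, and rose with a log2FC of 0.75 (SE 0.18, edgeR adjusted p = 0.00171). The log2FC was 0.77 (adjusted p = 0.0594) where Xist was above 1000 counts and 0.75 (adjusted p = 0.0123) where it was below, and neither set alone passed the threshold of 0.01 in the edgeR test. The sets differed by -0.03 (SE 0.36, edgeR adjusted p of the interaction term 0.973). Leaving out any 1 of the 24 libraries gave log2FC values from 0.68 to 0.82 and kept the call.

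**Figure D2:**
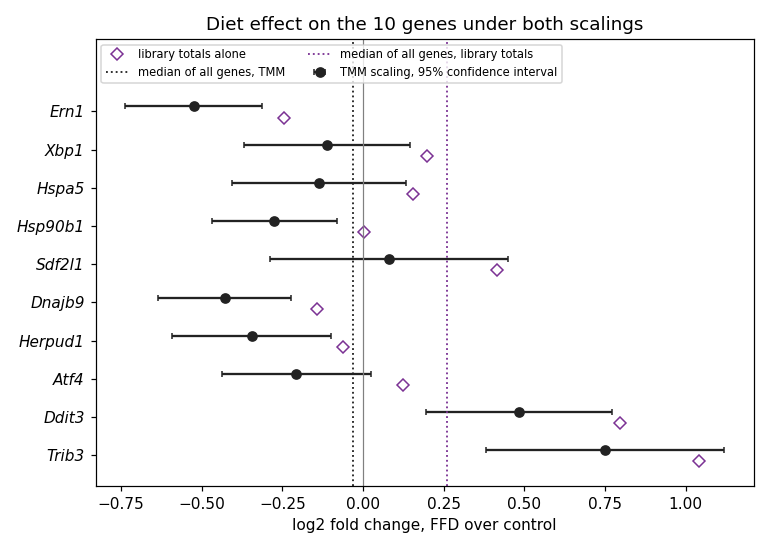
Log2 fold change of each gene, FFD over control, with TMM scaling (points, bars are 95% confidence intervals) and with library totals alone (diamonds). Dotted lines mark the median of all 17913 genes under each scaling, -0.03 and 0.26, and each gene keeps nearly the same distance from its own dotted line, for example 0.78 for Trib3 under both.

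Per kilobase of exon (GENCODE M21 models, which are not stated to be those used for counting), the members spanned a wide range of levels in control liver. Herpud1 was highest at 125 ± 28.3 CPM per kb (SD, n = 12), followed by Hsp90b1 at 111 ± 12.6 and Hspa5 at 102 ± 19, and these neighbours lay within 1 SD of each other. Xbp1 was at 57.8 ± 12.9 and Atf4 at 34.3 ± 9.64. Sdf2l1 (21.4 ± 8.16) and Dnajb9 (18.4 ± 4.23) again lay within 1 SD of each other. Ern1 was lower at 7.31 ± 1.58, and Trib3 and Ddit3 were the lowest at 3.49 ± 1.3 and 2.17 ± 0.680. Both called members, Ern1 and Trib3, were thus among the 3 lowest.

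Ratios of counts within a library do not depend on how libraries are scaled, and 5 pairs of functionally linked members were compared. The log2 ratio of Ddit3 to Atf4 was -3.75 ± 0.312 (SD, n = 12) on FFD and -4.45 ± 0.389 (SD, n = 12) in controls, a difference of 0.70 (SE 0.14, adjusted p = 0.00055, two-sided permutation test with 100000 resamples, Benjamini-Hochberg over the 5 pairs). In 8 FFD libraries it was above every control library. For Trib3 to Atf4 it was -2.51 ± 0.337 (SD, n = 12) and -3.50 ± 0.646 (SD, n = 12), a difference of 0.99 (SE 0.21, adjusted p = 0.00055, the same permutation test). Both Atf4 target mRNAs were thus higher relative to the mRNA of Atf4 itself, and all 12 FFD libraries were above the control median in both ratios. Where Xist was above 1000 counts the differences were 0.66 (exact permutation p = 0.00866) and 0.94 (exact permutation p = 0.0238), and where it was below they were 0.73 (exact permutation p = 0.00866) and 1.05 (exact permutation p = 0.00649).

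The log2 ratio of Xbp1 to Ern1 was 2.05 ± 0.283 (SD, n = 12) on FFD and 1.65 ± 0.36 (SD, n = 12) in controls. The difference was 0.40 (SE 0.13, adjusted p = 0.0106, permutation test over the same 5 pairs), and 11 of 12 FFD libraries were above the control median. For Sdf2l1 to Hspa5 the difference was 0.27 (SE 0.18, adjusted p = 0.166, permutation test). Without control replicate 10, which has the highest ratio of all libraries, it was 0.38 (adjusted p = 0.0199, permutation test), so whether this pair passes depends on 1 library. Where Xist was above 1000 counts, a set without that library, the difference was 0.48 (exact permutation p = 0.0108), and where it was below it was 0.06 (exact permutation p = 0.799). The ratio of the ER chaperones Hsp90b1 to Hspa5 differed by -0.13 (SE 0.09, adjusted p = 0.166, permutation test).

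**Figure D3:**
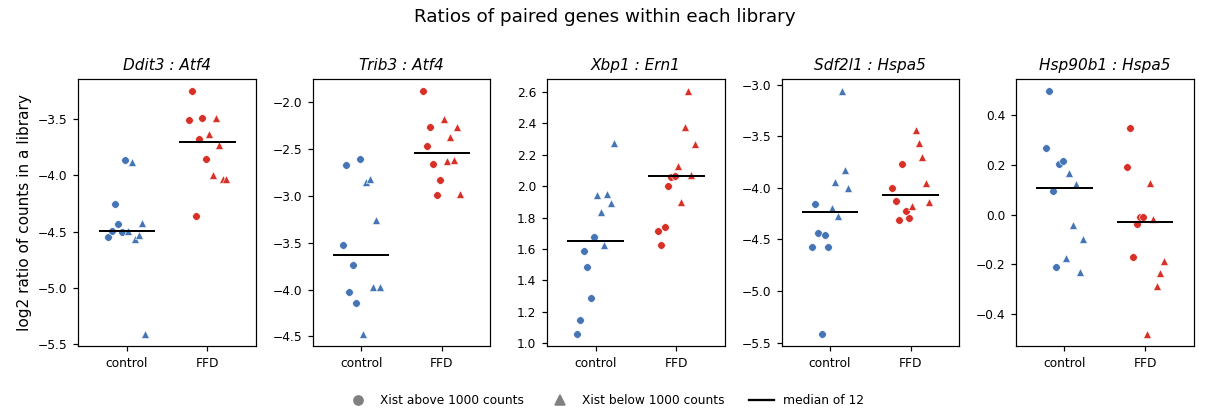
Log2 ratio of the counts of paired genes in each of 12 control and 12 FFD libraries (symbols as in the plot of levels by library, bars are medians). In Ddit3 to Atf4, 8 FFD libraries lie above every control library, and in Trib3 to Atf4, 6 do. In Hsp90b1 to Hspa5, 0 do, and FFD replicates 7, 10 and 11 lie below every control library.

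The other sensors of ER stress and the proteases that activate them were taken as a list, of which 9 of 10 genes were tested. In this list 1 gene was called higher and 1 lower (22.2% called, beside 18.2% of all genes), and both separated the diets completely. Creb3l1, an ER membrane transcription factor known for secretory and collagen-producing cells, was at 0.711 to 2.49 CPM in the control libraries (median 1.37) and at 3.14 to 7.10 in the FFD libraries (median 4.86). Its log2FC was 1.83 (SE 0.21, edgeR adjusted p = 6.33e-07). Creb3l3 encodes CREBH, its liver-enriched relative that controls lipid and acute-phase genes, and was at 329 to 449 CPM in control libraries (median 404) and at 229 to 314 in FFD libraries (median 263). Its log2FC was -0.54 (SE 0.08, edgeR adjusted p = 9.46e-06), or -0.25 (adjusted p = 0.00527) and no longer called under library totals alone. It was also not called with only genes of at least 10 counts in every library (-0.48). Across all genes, 1.48% had every FFD library above every control library and 0.402% the opposite. Eif2ak3 and Atf6, the other classical sensors, had log2FC values of 0.30 (adjusted p = 0.0518) and -0.27 (adjusted p = 0.0508) in the same edgeR test and were not called. Eif2ak3 was called higher under library totals alone (0.59, edgeR adjusted p = 0.00211). Without control replicate 10, Atf6 was at -0.33 (edgeR adjusted p = 0.00157), still under the fold threshold.

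Of 27 ER chaperones and folding enzymes, 0 were called higher and 1 lower, Pdia5, a protein disulfide isomerase (log2FC -0.56, SE 0.13, edgeR adjusted p = 0.00146). It ranged from 26.1 to 44.0 CPM on FFD and from 36.8 to 88.3 in controls, and without control replicate 12 it fell short of the fold threshold (-0.46). The count called lower was 2 without control replicate 9 or 11. At an unadjusted p under 0.05, 1 of the 27 was higher and 11 lower, and DESeq2 and limma-voom each called 0 higher and 1 lower. Of 23 ERAD genes, 0 were called in either direction at these thresholds, while 15 were lower and 0 higher at an adjusted p ≤ 0.05 in the same edgeR test. At an unadjusted p under 0.05, 16 were lower and 0 higher. DESeq2 and limma-voom called 0 as well, and without FFD replicate 3 or control replicate 10 edgeR called 1 lower. The share of all genes at an unadjusted p under 0.05 was not counted, here or for the lists and markers below. It cannot be under the 39.6% that passed an adjusted p ≤ 0.05. Of 41 genes of translocation, signal peptide processing and ER-to-Golgi traffic, 1 was called higher and 2 lower. With library totals alone, 0 genes of these lists were called lower.

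These 3 genes differ in kind. Kdelr3, a receptor that returns ER residents from the Golgi, rose from at most 0.461 CPM in the control libraries to 0.830 to 4.02 CPM in the FFD libraries, with 0 to 95 counts per library (log2FC 3.02, SE 0.37, edgeR adjusted p = 1.59e-06). Sec24a and Sec23a encode the inner coat of COPII vesicles, which leave the ER, and fell by 0.72 (SE 0.13, adjusted p = 0.000154) and 0.50 (SE 0.10, adjusted p = 0.00043) on the log2 scale in the same test. In 8 and 7 FFD libraries, respectively, they were below every control library. Sec23a lay at the fold threshold, and its call was lost in 7 of 12 alternative fits and thresholds, for example with DESeq2 (-0.49), and without any 1 of 12 libraries.

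Pooled over the 3 lists, 91 genes were tested and 4.40% were called, beside 18.2% of all genes. At an adjusted p ≤ 0.05, 37 of the 91 were lower and 2 higher, beside 18.9% and 20.7% of all genes. The median log2FC was -0.17, and 75 of the 91 genes were below 0. Most ER folding, degradation and traffic genes thus had small negative differences that stayed under the fold threshold. Under library totals alone the list medians were 0.08 for chaperones, 0.11 for ERAD and 0.16 for traffic, all below the 0.26 of all genes, so the sign of these small differences depends on the scaling.

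Among 13 genes of the eIF2alpha kinases, eIF2, eIF2B and the eIF2alpha phosphatase, 1 was called. Ppp1r15b, which encodes the constitutive phosphatase subunit CReP, ranged from 59.1 to 108 CPM on FFD (median 84.6) and from 106 to 135 in controls (median 124). In 11 of the 12 FFD libraries it was below every control library, and it fell by 0.54 on the log2 scale (SE 0.08, edgeR adjusted p = 2.06e-05). Under library totals alone it fell by 0.27 (adjusted p = 0.00606 in edgeR) and was not called, nor was it with only genes of at least 10 counts in every library (-0.49). Ppp1r15a, which encodes the stress-induced subunit GADD34, was not called (log2FC 0.15, edgeR adjusted p = 0.462), and without FFD replicate 3 its sign turned, to -0.03. None of the 4 eIF2alpha kinases was called by edgeR, and 0 of the 20 cytosolic aminoacyl-tRNA synthetases were, although 3 were higher and 6 lower at an adjusted p ≤ 0.05. At an unadjusted p under 0.05, 4 synthetases were higher and 6 lower, and DESeq2 and limma-voom called 0. With totals alone, 2 were called higher.

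Among 39 ATF4 and CHOP targets, 15 were higher and 2 lower on FFD (43.6% called, beside 18.2% of all genes), with a median log2FC of 0.41, against -0.03 over all genes. With library totals alone, 21 were higher and 1 lower. Within the libraries with Xist above 1000 counts 4 were higher and 1 lower, and within those below 15 and 2. Over all genes, 520 were higher and 158 lower within the former set, against 2372 and 894 in all 24 libraries. Within the latter, 1431 of all genes were lower. The number of all genes higher there is not given here, so the 15 has no background share beside it. With only genes of at least 10 counts in every library, 3 were higher and 2 lower. This filter shortens the list, leaving out Atf3, Tnfrsf10b and Slc7a11 among others, and left 1226 of all genes higher. The number of list genes it left is not given here. The summed level of the 39 genes overlapped between the diets. It was 2298 to 2851 CPM on FFD (median 2436) and 2286.5 to 3227 in controls (median 2370). The list was chosen with earlier results of these data known, so its share is not independent evidence, and several of its genes also respond to other regulators such as p53 and NRF2.

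The 3 largest rises were those of Tnfrsf10b, Atf3 and Slc7a11. Atf3, a stress-induced transcription factor downstream of ATF4, was at 4.74 to 15.9 CPM on FFD (median 9.62) and 0.509 to 3.68 in controls (median 1.6), without overlap of the diets (log2FC 2.50, SE 0.26, edgeR adjusted p = 3.18e-07). Tnfrsf10b, the death receptor DR5, had a log2FC of 2.69 (SE 0.41, adjusted p = 1.82e-05) from 0 to 33 counts per library. Slc7a11, the cystine transporter, had 2.19 (SE 0.50, adjusted p = 0.00116) from 0 to 12 counts per library, so its size rests on few reads. Both p-values are from the same edgeR test, and 10 and 8 FFD libraries, respectively, were above every control library.

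The 2 called falls were Slc38a2 and Cth. Slc38a2, a transporter of neutral amino acids, was at 33.1 to 113 CPM on FFD (median 50.5) and 67.5 to 230.4 in controls (median 95), and fell by 1.14 on the log2 scale (SE 0.21, edgeR adjusted p = 0.000151). Cth, which encodes cystathionine gamma-lyase of cysteine synthesis, was at 93.6 to 306 CPM on FFD (median 149) and 153 to 460.4 in controls (median 255), and fell by 0.77 (SE 0.19, edgeR adjusted p = 0.00196), or by 0.47 (adjusted p = 0.0154) and short of the call under library totals alone. For Cth the log2FC was -0.32 (edgeR adjusted p = 0.304) where Xist was above 1000 counts and -1.27 where it was below, and the difference of -0.95 (SE 0.31) had an adjusted p of 0.0501 in edgeR's interaction term. Gdf15, a secreted stress cytokine, was called higher (log2FC 0.91, SE 0.25, edgeR adjusted p = 0.00565), while Fgf21 (0.45, adjusted p = 0.158) and Chac1 (0.41, adjusted p = 0.212), other well-known ATF4 targets, were not. The call of Gdf15 was lost without FFD replicate 8 or control replicate 1, 2, 3, 7 or 9 (log2FC 0.83 to 0.88, edgeR adjusted p from 0.0101 to 0.0114). Asns, asparagine synthetase, was near its detection limit, with a median of 0.656 CPM on FFD and 0.661 in controls, and was not called.

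**Figure D4:**
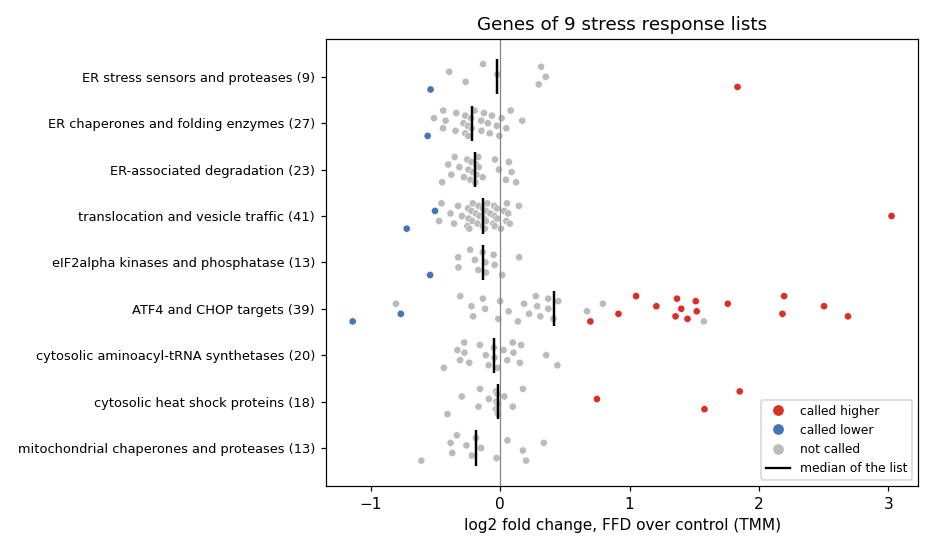
Log2 fold change (FFD over control, TMM) of each tested gene in 9 stress response lists, with the number tested in parentheses, red for called higher, blue for called lower, grey for not called and black bars for list medians. The 39 ATF4 and CHOP targets spread to the right with 15 called higher, while the ER chaperone, degradation and traffic lists centre between -0.22 and -0.13, or between 0.08 and 0.16 under library totals alone.

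Livers of the same diet differed in their Hspa5 level, and the other members were compared with it from liver to liver, as log2(CPM + 1) with the mean of each library set subtracted. On FFD, 4 of the 9 other members correlated with Hspa5 after Benjamini-Hochberg adjustment over the family of 36 values (Pearson's r and Spearman's rho, both diets, 100000 permutations within sets). How many of all genes pass the same test against Hspa5 was not counted. For Hsp90b1, r was 0.93 (permutation p = 4e-05, or 0.00144 once adjusted). Its rho was 0.94 (permutation p = 0.00012, adjusted 0.00216). With FFD replicates 2 and 7 left out, which lie farthest from the Hspa5 median, r was 0.87. Xbp1 had r = 0.82 (permutation p = 0.0022, or 0.0198 once adjusted) and a rho of 0.90 (permutation p = 0.00032, adjusted 0.00384), with r = 0.89 without those libraries. For Sdf2l1 r was 0.78 (permutation p = 0.00534, or 0.0337 once adjusted). Its rho was 0.76 (permutation p = 0.00958, adjusted 0.0343), with r = 0.71 without them. Dnajb9 had r = 0.76 (permutation p = 0.00645, adjusted 0.0337), rho = 0.70 (permutation p = 0.0199, adjusted 0.0598) and r = 0.72 without them.

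These 4 members thus varied with Hspa5 among FFD livers, Dnajb9 by r alone, whereas Herpud1 (r = 0.06, adjusted permutation p = 0.976) and Atf4 (r = 0.17, adjusted permutation p = 0.846) did not pass. In controls, Hsp90b1 again correlated with Hspa5 (r = 0.73, permutation p = 0.0105, adjusted 0.0343; rho = 0.77, permutation p = 0.00842, adjusted 0.0337; r = 0.81 without replicates 2 and 4, the farthest). Trib3 correlated negatively (r = -0.77, permutation p = 0.00731, adjusted 0.0337; rho = -0.78, permutation p = 0.00748, adjusted 0.0337; r = -0.79 without those libraries). The other control correlations did not pass, and Xbp1 had r = 0.27 (adjusted permutation p = 0.812), or 0.73 without replicates 2 and 4. Whether the diets differ in these relations was not tested. Without subtraction of the set means, only Hsp90b1 on FFD passed, and in controls none did.

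**Figure D5:**
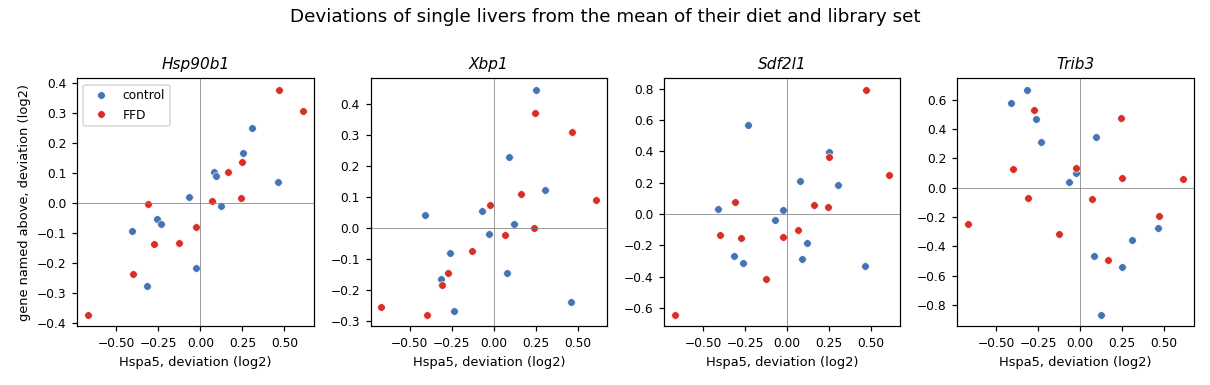
Deviation of Hsp90b1, Xbp1, Sdf2l1 and Trib3 (y axes) against that of Hspa5 (x axes) in log2(CPM + 1), each from the mean of its diet and library set, for 12 control (blue) and 12 FFD (red) livers. FFD points rise along the diagonal for Hsp90b1 (r = 0.93), Xbp1 (0.82) and Sdf2l1 (0.78), and control points fall for Trib3 (-0.77).

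Over all 24 libraries, with the mean of each diet and set subtracted, the 8 genes most like Hspa5 by Pearson's r among 13916 genes with a mean of at least 10 counts were Morf4l2 (r = 0.89), Hyou1 (0.89), Hsp90b1 (0.86), Pdia4 (0.86), Sec23b (0.81), Ero1lb (0.81), Creld2 (0.80) and Hspa13 (0.80). Of these, 6 belong to the member or pathway lists, and of the 50 most alike 14 did, beside 1.49% of all genes compared. For Xbp1 the 8 most alike were Uggt1 (r = 0.76), Sec61a1 (0.74), Sox6 (0.73), Pias1 (0.72), Nrd1 (0.71), Copg1 (0.71), Nars (0.71) and Cwc25 (0.71), with 12 of the 50 most alike in the lists. For Trib3 they were Plekhg5 (r = 0.76), Trmt9b (0.69), Trove2 (0.68), Col5a3 (0.68), 4930431P19Rik (0.67), Ccdc17 (0.67), Renbp (0.67) and Khdrbs3 (0.66), with 0 of 50 in the lists. These values describe likeness over libraries that share preparation and depth, and carry no p.

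Genes that mark cell types of the liver also differed between the diets. Of 10 hepatocyte markers, 7 were called lower and 0 higher, beside 4.99% of all genes called lower, or 3 lower under library totals alone, beside 1.26%. All 10 were below 0 under both scalings, and their summed level was 38937 to 92602 CPM on FFD (median 59037) and 86411 to 134929 in controls (median 102131). All 8 markers of monocyte-derived macrophages were called higher, with sums of 325 to 1328 CPM on FFD (median 619) and 95 to 319 in controls (median 133). Of 9 stellate cell and myofibroblast markers 6 were higher (sums of 401 to 985 against 165 to 482 CPM), and of 6 tested cholangiocyte markers 5 were (32.2 to 896 against 27.5 to 133 CPM). Spp1 stands in both the macrophage and the cholangiocyte list. It reached 17249 counts in an FFD library, against at most 1376 for Epcam, so it weighs most in the cholangiocyte sum. Across all genes, 13.2% were called higher. Of 5 Kupffer cell markers 1, of 7 sinusoidal endothelial markers 1, and of 8 T cell markers 0 were called higher by edgeR, with summed levels of 170 to 779 against 109 to 468, 215 to 395 against 187 to 390, and 3.63 to 11.7 against 3.34 to 11.7 CPM. At an unadjusted p under 0.05, 2 T cell markers were higher and 1 lower, DESeq2 called 1 higher and limma-voom 0. The lower Ern1 and Creb3l3 and the higher Trib3, Atf3 and Creb3l1 may be read only as levels relative to all counts. The part of these markers in the member results was not tested.

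Finally, the diet effect was compared between the library sets by an interaction term. Of the 10 members, 0 passed at an adjusted p ≤ 0.05 in edgeR's quasi-likelihood test, beside 10.2% of all genes. At an unadjusted p under 0.05, 1 did, Sdf2l1, whose log2FC was 0.45 where Xist was above 1000 counts and -0.16 where it was below (difference -0.61, SE 0.28, adjusted p = 0.179). How many of all genes pass that unadjusted p was not counted. With library totals alone or DESeq2's size factors in the same fit, 0 of 10 passed at the adjusted p as well.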

How the data were processed

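The table the authors deposited holds raw counts (whole numbers) of 24 libraries from poly(A)-selected RNA of mouse liver. The submitters' processing notes name bcl2fastq, STAR 2.7.3a and mm10, and the study's methods name a TruSeq Stranded kit, STAR and PISCES with a human reference. The counting program, annotation and strand setting for these mouse libraries are not given in the sources used here. Total counts per library set the precision (14468418 to 22112552). GENCODE M21 gave symbols for 51745 of 56205 IDs. A second ID of Ddit3 had 0 counts in all libraries.

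The 17913 genes with a count in 12 or more libraries entered a quasi-likelihood fit of diet alone (edgeR 4.0.16, R 4.3.3, scaled by TMM). P-values were adjusted over all of them by Benjamini-Hochberg, genes were called at the thresholds the study gives for human liver, and SE was derived as |log2FC| over the square root of F. Tested on simulated counts for FFD against control over 17913 genes, the fit recovered 83.5% of 200 changed genes and called 1 unchanged gene. The changed genes had a mean of at least 10 counts and log2 fold changes of 1 or 2, equally often up and down. These changes are larger than that of any member, so recovery at the sizes seen in the members was not simulated. Ratios used a pseudocount of 0.5 and permutation tests from scipy 1.17.1, and correlations a pseudocount of 1. Libraries of 1 diet always differed beyond sampling noise (chi-square per degree of freedom of at least 9.48). Each library stands for 1 mouse as far as the design text tells, so p-values measure the spread between these livers.

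The members and lists were chosen with earlier results of these data known. Named were the members, up to 3 called genes per direction and list, 8 genes of textbook roles (Eif2ak3, Atf6, Asns, Chac1, Atf3, Fgf21, Gdf15 and Ppp1r15a), and the 8 genes most like Hspa5, Xbp1 and Trib3. Mars is named for its overlap with Ddit3. Alternatives were DESeq2 1.42.0, limma-voom (limma 3.58.1), library totals or DESeq2's size factors, 3 other filters, an adjusted p of 0.05 alone, a replicate block, the library set as a covariate, fits within sets, other pseudocounts, set means not subtracted, and each library left out. The interaction term under other scalings was added after seeing the data.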

Additional observations from a re-analysis of the deposited data

Results flagged for a closer look

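The diet effect differed between the library sets in 3 of the genes named for the stress response lists, tested as an interaction term with edgeR's quasi-likelihood test and Benjamini-Hochberg adjustment over all genes, and in 0 of the 10 members. Asns had a log2FC of 2.44 (SE 0.81) where Xist was above 1000 counts and -1.79 (SE 0.64) where it was below, a difference of -4.24 (SE 1.11, adjusted p = 0.0147), at levels from 0 to 11 CPM. Its medians were 0.656 CPM on FFD and 0.661 in controls, and single libraries weighed heavily. Over both sets its log2FC was -0.14 without control replicate 7 and -1.35 without FFD replicate 3. For Kdelr3 the log2FC values above and below 1000 Xist counts were 1.88 (SE 0.36) and 3.94 (SE 0.45), a difference of 2.04 (SE 0.58, adjusted p = 0.0246). For Sec24a they were -0.41 (SE 0.11) and -1.08 (SE 0.17), a difference of -0.68 (SE 0.21, adjusted p = 0.0341). The sets match the replicate numbers of the labels. Across all genes 10.2% passed the same test, so these 3 are not read as particular to the stress response lists.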

How the results depend on the processing

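Limits come first from the scaling. Library totals alone gave 3827 genes called higher and 226 called lower, and turned the sign of Hspa5 (0.15), Hsp90b1 (0.0038), Xbp1 (0.20) and Atf4 (0.12). Requiring 10 counts in each library left 1226 higher, and a threshold of an adjusted p of 0.05 alone gave 3709 higher, 3388 lower and 6 members called. Within the libraries with Xist above 1000 counts, 520.0 genes were higher and 158 lower with 0 members called, and Asns turned to 2.44. Within those below, 1431 were lower with 1 member called (Herpud1), and Sdf2l1 turned to -0.16. Fewer libraries entered both fits. With limma-voom Asns was at 0.37. Without subtraction of set means, 1 member correlated with Hspa5 on FFD and 0 on the control diet, and r turned for Trib3 on FFD (-9.87e-05) and Sdf2l1 on the control diet (0.14). The cause was not tested.

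Leaving out 1 library each gave 1 to 3 members called, 2137 to 2464 genes higher, 745 to 995 lower, and ratio differences of 0.16 to 0.38 for Sdf2l1 to Hspa5. Ddit3 passed the fold threshold in 5 of these 24 fits, and Ppp1r15a ranged from -0.029 (without FFD replicate 3) to 0.21. Trib3 was called under all alternatives to the fit but those within a library set.

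The labels do not say what a replicate number marks. Deviations of same-numbered livers from their diet mean correlated over 0.1 in 11 of 12 pairs, but not in all. Same-numbered livers also share a library set, whose mean was not subtracted, so these correlations cannot show a pairing by number. Only 2 of 12 FFD libraries matched their own number best, and the numbers were not taken as a pairing. With the replicate number as a block, Ddit3 was called (0.51, adjusted p = 0.00946 in edgeR), and the ratio of Hsp90b1 to Hspa5 passed (-0.13, adjusted p = 0.0226, sign-flip permutation test).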

Other observations

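Of 18 cytosolic heat shock genes, 3 were called higher and 0 lower by edgeR's quasi-likelihood test (16.7% called, beside 18.2% of all genes). Hspb1, a small heat shock protein, was at 66.0 to 264 CPM on FFD (median 110.03) and 19.5 to 74.5 on the control diet (median 35.5), with a log2FC of 1.85 (SE 0.25, adjusted p = 4.53e-06). Hspa1a (1.58, SE 0.36, adjusted p = 0.00113) and Hspa1b (0.75, SE 0.20, adjusted p = 0.0052) encode near-identical inducible HSP70 proteins, so the split of reads between them is uncertain. The call of Hspa1b was lost without FFD replicate 8 (0.71, adjusted p = 0.0105) or 11 (0.69, adjusted p = 0.0117) in edgeR. The constitutive Hspa8 and Hsp90ab1 were not called (-0.30, adjusted p = 0.11, and -0.01, adjusted p = 0.90, in the same test). Of 13 mitochondrial chaperones and proteases, 0 were called by edgeR, DESeq2 or limma-voom. At an adjusted p of at most 0.05 in edgeR 3 were higher and 7 lower, beside 20.7% and 18.9% of all genes. At an unadjusted p under 0.05 3 were higher and 8 lower, a threshold at which all genes were not counted. Under library totals alone 2 were called higher.

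Of 14 core clock genes, 1 was higher (Npas2, log2FC 2.22, SE 0.46, adjusted p = 0.000508) and 3 were lower in the same edgeR test (28.6% called, beside 18.2% of all genes). Under library totals alone 2 were higher and 1 lower. The lower genes under TMM were Ciart (-1.16, adjusted p = 0.000629), Cry1 (-0.78, adjusted p = 0.00063) and Nr1d2 (-0.53, adjusted p = 0.00106). The labels give no hour of sampling. Of 8 tested plasma and B cell markers, whose cells have much ER, 1 was higher (Prdm1, 1.21, adjusted p = 0.000442), and their summed level was 188 to 509 CPM on FFD and 229 to 508 on the control diet. Tnfrsf17, which marks plasma cells, was at 0 in 10 FFD and 11 control libraries. The part of these genes in the member results was not tested.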
